A study of Mus musculus with 6 samples.

Results

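The genes described here separated natural regulatory T cells (nTreg) from 2 populations that descend from regulatory T cells made in culture. A gene was counted as an origin gene if both nTreg arrays lay above, or both below, all 4 arrays of induced origin, and if the means of the 2 induced-origin populations differed by less than 0.5 log2. Of 11019 genes tested, 3737 (33.9%) met this rule, 1510 higher and 2227 lower in nTreg. The rule reads the expression values themselves, so that these genes differ is how they were chosen; fitted differences and limma's adjusted p are given to show their size against the spread between arrays.

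All cells came from BALB/c Rag1-/- hosts, which make no T or B cells of their own, given wild-type (WT) nTreg cells together with 500000 WT iTreg cells derived in vitro. At day 125, CD4-stained cells of spleen and mesenteric lymph node from 14 such mice were sorted and pooled. nTreg cells were EGFP+ Thy1.1-, stable iTreg cells EGFP+ Thy1.1+, and ex-iTreg cells EGFP- Thy1.1+, where EGFP reports Foxp3 and Thy1.1 marks the transferred induced cells. Each population has 2 arrays, titled as replicate pools 1 and 2. Nothing in the labels states that pools 1 and 2 came from different mice, so p-values measure only the spread between these arrays, which may be technical. The culture, the Thy1 allele and the donors differ together with origin, and their contributions cannot be told apart. The labels give neither the age of the mice nor the sex of the hosts or donors.

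nTreg cells acquire Foxp3 in the thymus, whereas iTreg cells are conventional CD4 T cells that acquired it outside the thymus, here in culture. Foxp3 is the transcription factor on which regulatory function depends, and induced cells can lose it, which leaves ex-iTreg cells. The rule looks for genes that go with the source of the cells and not with the reporter, which iTreg share with nTreg and ex-iTreg lack. NF-kappaB signalling, in particular through c-Rel, is known for its part in thymic Treg development, and naive T cell genes are those that circulating T cells switch off when activated.

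Values are log2 expression as deposited. Differences are nTreg minus the mean of the iTreg and ex-iTreg means, ± the standard error from limma, with n = 2 arrays in each population. The median difference over all genes was -0.03. Array medians lay between 5.47 and 5.49, and 5.48, the median of all values, was taken as near background. Arrays of 1 population correlated with r between 0.9957 and 0.9972, against 0.9563 to 0.9787 for arrays of different populations; probe sets are not independent replicates. The mean of the poly-A control probe sets was 10.9 to 11.0 in nTreg, 12.3 to 12.4 in iTreg and 9.49 to 9.62 in ex-iTreg, so nTreg lay between the induced populations; its part in the results was not tested. Foxp3 itself lay between 3.99 and 4.30 on all arrays, under the filter, so the sort on its reporter could not be checked by this probe set. Other Treg markers, Il2ra and Ctla4 among them, were above background.

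Promoters are shown for the 2 genes of largest difference in each direction among those the naming rule allows; it passes over clone and model names, so BC018473 (3.57) and 1700001D01Rik (2.53) among the higher and Gm20199 (-2.38) among the lower genes are left out. Each runs from 250 bases before to 50 after the RefSeq transcription start (GRCm38.p6) and is written 5′ to 3′ on the gene's strand, with matches to the letters searched in capitals.
Zc3h12c, chr9:52168357-52168656, minus strand: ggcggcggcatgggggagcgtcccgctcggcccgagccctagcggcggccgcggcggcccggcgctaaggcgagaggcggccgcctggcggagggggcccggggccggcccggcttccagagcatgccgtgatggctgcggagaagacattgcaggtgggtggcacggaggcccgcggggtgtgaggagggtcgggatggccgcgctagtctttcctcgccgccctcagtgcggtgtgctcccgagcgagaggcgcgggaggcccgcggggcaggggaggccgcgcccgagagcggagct
Kdf1, chr4:133518713-133519012, plus strand: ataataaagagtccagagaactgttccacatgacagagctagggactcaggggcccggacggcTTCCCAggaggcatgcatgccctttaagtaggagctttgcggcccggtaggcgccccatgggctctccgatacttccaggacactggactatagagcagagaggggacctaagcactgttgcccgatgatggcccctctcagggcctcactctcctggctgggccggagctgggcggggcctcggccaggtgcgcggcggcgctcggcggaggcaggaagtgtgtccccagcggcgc
Myo6, chr9:80164784-80165083, plus strand: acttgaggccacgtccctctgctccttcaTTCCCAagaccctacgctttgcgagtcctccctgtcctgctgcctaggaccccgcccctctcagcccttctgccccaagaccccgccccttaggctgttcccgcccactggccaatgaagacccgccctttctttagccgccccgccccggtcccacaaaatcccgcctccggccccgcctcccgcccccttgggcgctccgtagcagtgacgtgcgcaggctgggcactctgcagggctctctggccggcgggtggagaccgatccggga
Igfbp4, chr11:99040994-99041293, plus strand: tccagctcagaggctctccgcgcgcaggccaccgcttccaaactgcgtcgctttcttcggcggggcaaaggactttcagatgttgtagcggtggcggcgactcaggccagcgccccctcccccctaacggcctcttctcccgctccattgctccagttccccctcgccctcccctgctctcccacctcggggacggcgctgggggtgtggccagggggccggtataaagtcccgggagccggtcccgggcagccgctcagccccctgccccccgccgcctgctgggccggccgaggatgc
The capitals in Kdf1 and Myo6 mark TGGGAA, the Ikaros core, here read on the opposite strand. The other windows held none of the 4 motifs searched on both strands, which were TGTTTAC (forkhead), TGANTCA (AP-1), TGGGAA (Ikaros core) and TGTGGT (RUNX core). A match to 1 motif can share bases with a match to another. The table holds 2 windows for Zc3h12c, and the first is shown.

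Promoter content of the origin genes was close to that of all genes tested. Windows were found for 8929 of the 11019 genes, for 225 of the 284 origin genes at least 1.5-fold higher in nTreg and for 155 of the 175 at least 1.5-fold lower. The Ikaros core stood in 22.6% of all these promoters, 22.2% of the higher and 24.5% of the lower genes. The RUNX core stood in 12.5%, 10.7% and 12.3%, the AP-1 letters in 4.85%, 5.33% and 6.45%, and the forkhead letters in 2.51%, 2.67% and 2.58%. The median number of CpG dinucleotides was 21 over all tested genes and 19 in both directions; Zc3h12c had 41, Kdf1 18, Myo6 22 and Igfbp4 27. A match is a description of letters in the window and not evidence of binding.

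Most origin genes differed by little. The median difference was 0.30 log2 (1.23-fold) in the higher and 0.27 (1.20-fold) in the lower genes, and 72 and 34 genes reached 2-fold. Over all genes tested, the rule took 13.7% as higher and 20.2% as lower, and with the 2-fold minimum 0.653% and 0.309%. Without the limit on the iTreg and ex-iTreg difference, 1909 genes (17.3%) had both nTreg arrays above all others and 2455 (22.3%) had both below. limma called 1717 genes higher (15.6%) and 1914 lower (17.4%) in nTreg at an adjusted p under 0.05, among them 1052 of the 1510 higher and 1395 of the 2227 lower origin genes, and all of the 72 and 34 genes at 2-fold. With 2 arrays against 4, the smallest two-sided p of an exact permutation test is 0.133, and the calls rest on the spread that limma pools over probe sets.

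Those counts depend on the fit and on single arrays. When the 4 induced-origin arrays were fitted as 1 group, limma called 362 genes higher and 309 lower, while 71 of the 72 and 34 of the 34 origin genes at 2-fold were still called; the exception was Rasgef1a, named after its values were seen. Origin genes described below that were no longer called in that fit included Nfkbie, Relb, Tnip1, Zc3h12a, Cd200, S100a6, Thy1, Kdm5c, Dgka, Rps25 and S1pr1. Without nTreg pool 2, limma called 1158 genes lower, and 2344 genes met the rule as higher, since a rule over fewer arrays is easier to meet.

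**Figure D1:**
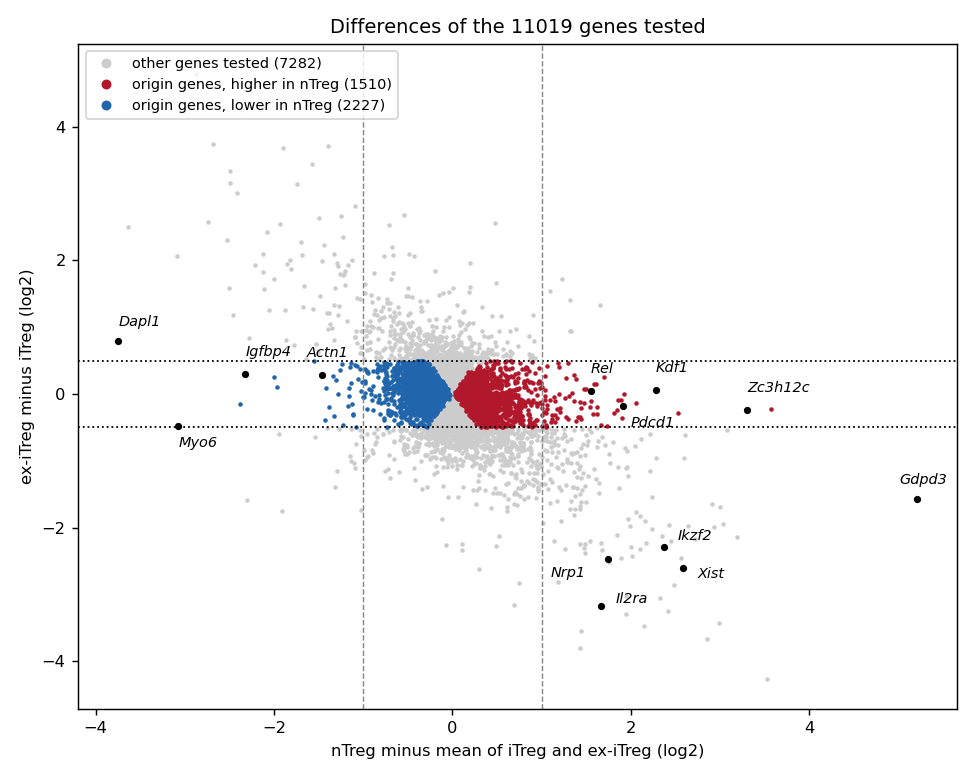
Each point is 1 of the 11019 genes tested, with nTreg minus the mean of iTreg and ex-iTreg on the horizontal axis and ex-iTreg minus iTreg on the vertical axis, both in log2. The 1510 higher (red) and 2227 lower (blue) origin genes fill the band between the dotted lines at 0.5 and -0.5, the dashed lines mark 2-fold, and Gdpd3, Ikzf2, Nrp1, Il2ra and Xist lie below the band.

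The limit of 0.5 does not make the induced populations alike. limma called an iTreg against ex-iTreg difference in 36.6% of all genes, and in 379 of the higher and 417 of the lower origin genes, a count the limit itself holds down. Among genes with non-overlapping arrays and at least 2-fold, the limit kept 28.9% of 249 higher and 28.8% of 118 lower genes. At the limit the choice is arbitrary: Ctnna1 and Sc5d, with ex-iTreg minus iTreg of -0.50 and 0.50, fell just inside among the higher genes, and Ikbip and Ermp1, both at -0.50, just outside. Among the lower genes Setd4 (0.50) and Tnfrsf1a (-0.50) were inside, and Tbrg4 and Vcl (both 0.50) outside.

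Of the genes that the naming rule allows, Zc3h12c had the largest higher difference; it is the gene of Regnase-3, a member of the RNase family that degrades inflammatory messenger RNAs. It read 7.59 and 7.23 in nTreg, 4.07 and 4.38 in iTreg, and 4.05 and 3.94 in ex-iTreg. Both nTreg arrays lay at least 2.85 above every other array, and the difference was 3.30 ± 0.13 (9.87-fold on the fitted means, limma adjusted p 2.06e-05). All 4 of its induced values were under 5.48, where array values compress folds, so the probe set passed the filter only through nTreg and had to differ. A relative in the same family, Zc3h12a (Regnase-1), was also higher in nTreg, at 9.34 and 9.25 against 8.81 and 8.94 in iTreg and 8.50 and 8.52 in ex-iTreg, a difference of 0.60 ± 0.06 (limma adjusted p 0.000909). Of 38 tested regulators of messenger RNA decay and RNA binding, limma called 8 higher and 3 lower, and the median difference of the list was 0.00. The origin rule took 7 (18.4%) as higher and 2 (5.26%) as lower, against 13.7% and 20.2% of all genes.

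Surface receptors stood among the higher origin genes. Pdcd1 encodes PD-1, the inhibitory receptor of activated T cells, and read 8.77 and 8.74 in nTreg, 6.95 and 6.91 in iTreg, and 6.79 and 6.72 in ex-iTreg. The nTreg arrays were nearly equal and stood 1.79 above the highest induced value; the difference was 1.91 ± 0.06 (3.76-fold, limma adjusted p 7.5e-06). For Pdcd1 the interval of ex-iTreg minus iTreg ran from -0.33 to -0.02 (95%, limma). The rule itself held the difference of these means under 0.5. Icos, the inducible costimulator, was high everywhere, at 13.11 and 13.18 in nTreg, 12.63 and 12.59 in iTreg and 12.71 on both ex-iTreg arrays. Its difference of 0.49 ± 0.06 (limma adjusted p 0.00124) was small. Both other tested Icos probe sets also met the rule, with differences of 0.66 and 0.53.

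Cd200r1, an inhibitory receptor, and Cd200, its ligand, were both higher in nTreg. Cd200r1 read 8.26 and 8.18 in nTreg against 7.16 to 7.37 on the induced arrays (0.95 ± 0.06), and Cd200 6.92 and 6.86 against 6.11 to 6.53 (0.59 ± 0.06). Another Cd200r1 probe set was outside the rule, with ex-iTreg minus iTreg of -0.54. Lair1, an inhibitory collagen receptor, went the other way, at 5.87 and 5.74 in nTreg, 7.18 and 7.04 in iTreg, and 7.55 and 7.65 in ex-iTreg. The difference was -1.55 ± 0.07 (limma adjusted p 4.03e-05), and 2 further Lair1 probe sets, at -1.35 and -1.20, missed the rule because iTreg and ex-iTreg differed by 0.65 and 0.58. Over the 25 tested inhibitory and costimulatory receptors, 14 were called higher and 6 lower. As higher 5 (20%) met the rule, and as lower 6 (24%), against 13.7% and 20.2% of all genes.

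Chemokine receptors met the rule in both directions. Ccr8, a chemokine receptor known on tissue Treg cells, read 6.61 and 6.52 in nTreg, 5.14 on both iTreg arrays, and 4.87 and 4.82 in ex-iTreg (1.57 ± 0.06, limma adjusted p 1.63e-05). All induced values of Ccr8 were under 5.48, so it passed the filter only through nTreg, where it is high. Cxcr4, which retains cells in bone marrow and lymphoid tissue, was higher by 0.76 ± 0.06, while Ccr7 and the sphingosine 1-phosphate receptors S1pr4 and S1pr1, of which S1pr1 guides T cell exit from lymphoid tissue, differed by -0.48, -0.48 and -0.40. S1pr1 only just met the rule, with means of 9.395 in nTreg, 9.549 in iTreg and 10.05 in ex-iTreg. Its nTreg arrays lay 0.034 below the nearest iTreg array, and ex-iTreg minus iTreg was 0.496. Of 31 tested chemokine receptor and homing genes, limma called 12 higher and 9 lower, and 4 (12.9%) met the rule in each direction, against 13.7% and 20.2% of all genes.

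Cytokine receptors also met the rule in both directions. Il1r2, the decoy receptor that binds IL-1 without signalling, read 10.47 and 10.32 in nTreg, 8.96 and 9.05 in iTreg, and 9.45 and 9.37 in ex-iTreg (1.19 ± 0.07). Here ex-iTreg lay above iTreg, by 0.41 (95% interval 0.21 to 0.60), the opposite order to Ccr8. Bmpr2, a receptor for bone morphogenetic proteins, was higher by 1.04 ± 0.06. Il6ra, the receptor chain for IL-6, was lower, at 8.44 and 8.17 in nTreg, 9.73 and 9.80 in iTreg, and 9.34 and 9.26 in ex-iTreg (-1.23 ± 0.09, limma adjusted p 0.000188). Of 36 tested cytokine receptors, limma called 14 (38.9%) higher and 10 (27.8%) lower, against 15.6% and 17.4% of all genes. As higher 6 (16.7%) met the rule, and as lower 2 (5.56%), against 13.7% and 20.2% of all genes.

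The chemokine Cxcl11, a ligand of CXCR3, read 6.70 and 6.10 in nTreg and 4.42 to 4.57 on the 4 induced arrays (1.88 ± 0.16, limma adjusted p 0.000354). The nTreg arrays differed from each other by more than the induced arrays did, and that both lay above them is the rule itself. All induced values of Cxcl11 were under 5.48, so it passed the filter only through nTreg. Cxcl10, a ligand of the same receptor, was higher in nTreg by 0.78 ± 0.08, at 10.06 and 10.16 against 9.09 to 9.59. Cxcl9, the third ligand of CXCR3, met the rule as lower, at 4.97 and 5.20 in nTreg against 5.34 to 5.61, all near background (-0.42 ± 0.10, limma adjusted p 0.0193). The list of chemokines and cytokines holds Cxcl10 and Cxcl9 but not Cxcl11, which is named for the size of its difference. Of its 24 tested members, 6 (25%) were called higher and 11 (45.8%) lower, against 15.6% and 17.4% of all genes. Cxcl10 alone (4.17%) met the rule as higher, and 4 (16.7%) met it as lower, against 13.7% and 20.2%.

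**Figure D2:**
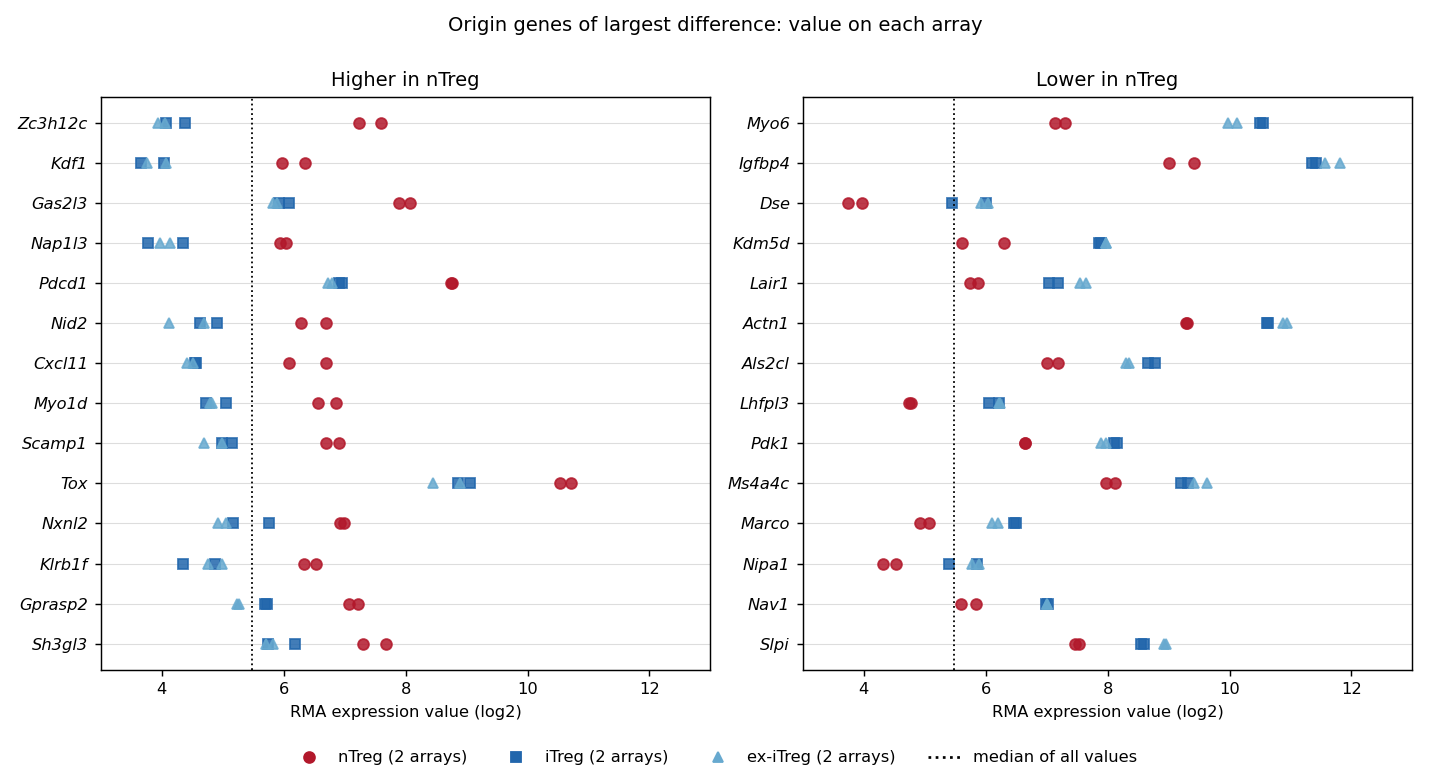
RMA expression values (log2) of the 14 named origin genes of largest difference in each direction, 1 point per array, with nTreg as red circles, iTreg as dark squares and ex-iTreg as light triangles; the dotted line is the median of all values, 5.48. In each row both nTreg points lie on 1 side of the 4 others; Gas2l3, Pdcd1, Tox and Sh3gl3 are the genes of the left panel whose induced means both lie above the dotted line.

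NF-kappaB pathway genes were mostly higher in nTreg, counted below over the list. Rel encodes c-Rel, and read 10.11 and 10.09 in nTreg, 8.53 and 8.52 in iTreg, and 8.55 and 8.59 in ex-iTreg. The 4 induced arrays lay between 8.52 and 8.59 while nTreg stood 1.499 above the highest of them; the difference was 1.55 ± 0.05 (2.93-fold, limma adjusted p 1.27e-05). For Rel the 95% interval of ex-iTreg minus iTreg was -0.10 to 0.19.

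Inhibitors and partners of NF-kappaB were also among the higher origin genes. Nfkbie, which encodes the inhibitor IkappaB-epsilon, read 11.41 and 11.36 in nTreg, 10.81 and 10.97 in iTreg, and 10.52 and 10.44 in ex-iTreg (0.70 ± 0.07, limma adjusted p 0.000668). Birc2, the ubiquitin ligase cIAP1 of the TNF receptor complex, read 11.65 and 11.62 in nTreg and 10.91 to 10.97 elsewhere (0.69 ± 0.05). Relb, the partner subunit of the alternative pathway, was higher by 0.48 ± 0.08, and Tnip1, which helps A20 restrain the pathway, by 0.49 ± 0.07. In all, limma called 15 of 26 tested NF-kappaB pathway genes higher and 3 lower, with a median difference of 0.29 against -0.03 over all genes. The origin rule took 11 (42.3%) as higher, against 13.7% of all genes, and 2 (7.69%) as lower, against 20.2%. The lower ones were Nfkbid, an atypical inhibitor, and Ikbkb, the kinase IKK-beta, at -0.36 and -0.31, named after their values were seen. Under quantile normalization the counts of origin genes were again 11 and 2.

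Activation genes of the AP-1, EGR and NR4A families were called higher in 19 of 36 tested members and lower in 4, with a median of 0.21. These are 52.8% and 11.1%, against 15.6% and 17.4% of all genes. The origin rule took 12 (33.3%) as higher and 4 (11.1%) as lower, against 13.7% and 20.2% of all genes. This list shares Rel and Tnfaip3 with the NF-kappaB list. Batf, an AP-1 factor needed by effector Treg cells, read 10.17 and 10.13 in nTreg and 9.54 to 9.71 on the induced arrays (0.52 ± 0.06). Dusp5, a nuclear phosphatase for ERK that ERK signalling induces, read 11.68 and 11.70 against 11.02 to 11.16 (0.61 ± 0.06, limma adjusted p 0.00091). Dusp10, a phosphatase for p38 and JNK, went the other way, at 10.23 and 10.22 in nTreg, 11.13 and 11.09 in iTreg, and 11.58 and 11.50 in ex-iTreg (-1.10 ± 0.06, limma adjusted p 5.11e-05). Gem, a small GTPase of the RGK family that is also induced on activation but is counted with the small GTPases, read 9.81 and 9.82 in nTreg and 8.09 to 8.38 on the induced arrays (1.54 ± 0.07, limma adjusted p 3.24e-05).

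**Figure D3:**
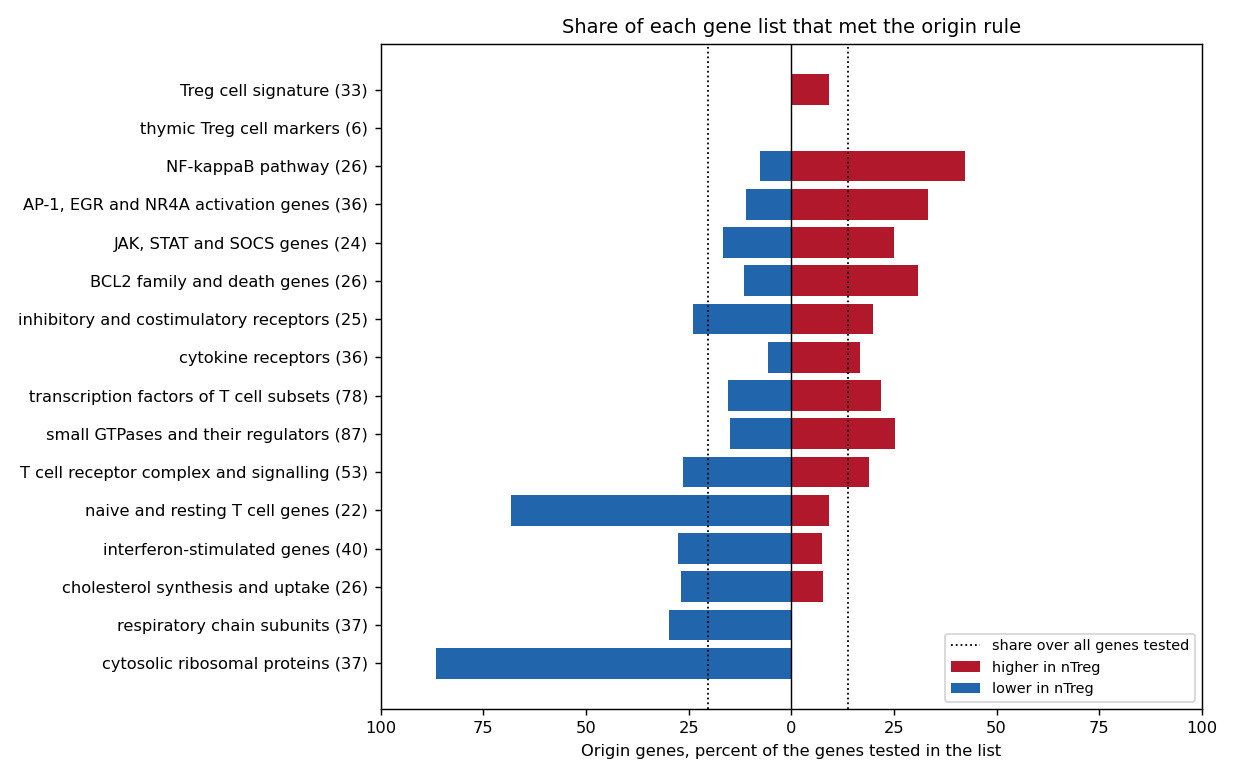
Percent of the tested genes of each list that met the origin rule as higher (red, to the right) or lower (blue, to the left) in nTreg, with the number tested in brackets; the dotted lines are the shares over all genes tested, 13.7% and 20.2%. NF-kappaB genes reach 42.3% to the right, and naive T cell genes 68.2% and ribosomal proteins 86.5% to the left, while no thymic Treg marker met the rule.

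Transcription factors met the rule in both directions. Tox, an HMG-box factor of T cell development and of chronically stimulated T cells, read 10.71 and 10.53 in nTreg, 9.06 and 8.85 in iTreg, and 8.45 and 8.89 in ex-iTreg. The difference was 1.81 ± 0.14 (3.51-fold, limma adjusted p 0.000242); another 2 Tox probe sets were higher by 1.12 and 1.32 but missed the rule, with iTreg above ex-iTreg by over 0.5. Myb, a factor of progenitor cells and of effector Treg cells, read 9.49 and 9.48 in nTreg, 8.38 and 8.26 in iTreg, and 8.71 on both ex-iTreg arrays (0.97 ± 0.06), and its 2 further probe sets met the rule at 1.12 and 1.02. Ahr, the ligand-activated aryl hydrocarbon receptor, read 10.33 and 10.32 in nTreg and 9.29 to 9.54 on the induced arrays (0.88 ± 0.07, limma adjusted p 0.000242). Of 78 tested transcription factors of T cell subsets, limma called 33 higher and 14 lower. The rule took 17 (21.8%) as higher and 12 (15.4%) as lower, against 13.7% and 20.2% of all genes.

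Foxp1, a factor that keeps naive T cells quiescent, was the leading lower transcription factor. It read 10.61 and 10.51 in nTreg, 11.48 and 11.53 in iTreg, and 11.43 and 11.41 in ex-iTreg (-0.90 ± 0.06, limma adjusted p 0.000128). The 7 other tested Foxp1 probe sets also met the rule as lower, at -0.52 to -0.98. Satb1, a chromatin organizer active in thymocytes and naive T cells, read 11.91 and 11.88 in nTreg, 12.50 and 12.44 in iTreg, and 12.82 and 12.78 in ex-iTreg (-0.74 ± 0.06). Its other 4 probe sets were lower too, but 3 of them had ex-iTreg above iTreg by 0.56 to 0.66 and so were outside the rule.

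Naive and resting T cell genes were lower in nTreg as a group. limma called 19 of the 22 tested members lower and 2 higher, the median difference was -0.66, and 15 (68.2%) met the origin rule as lower against 20.2% of all genes. Igfbp4, a binding protein of insulin-like growth factors used as a marker of naive CD4 T cells, read 9.002 and 9.43 in nTreg, 11.35 and 11.42 in iTreg, and 11.56 and 11.81 in ex-iTreg. Its difference was -2.32 ± 0.13 (limma adjusted p 7.61e-05), and its 5 other tested probe sets all met the rule, at -1.01 to -4.10. Actn1, the actin crosslinker alpha-actinin 1, read 9.29 and 9.30 in nTreg, 10.63 and 10.61 in iTreg, and 10.87 and 10.94 in ex-iTreg (-1.47 ± 0.05, limma adjusted p 1.82e-05). Als2cl, a relative of the Rab5 activator alsin, read 7.18 and 7.01 in nTreg and 8.30 to 8.77 on the induced arrays (-1.42 ± 0.07).

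The homing and quiescence members of that list differed by less. Ccr7, the receptor that brings T cells into lymph nodes, read 10.56 and 10.60 in nTreg, 11.20 and 11.10 in iTreg, and 10.95 and 10.99 in ex-iTreg (-0.48 ± 0.06, limma adjusted p 0.00154). Sidt1, a transmembrane protein related to RNA transporters, was lower by 1.14 ± 0.06 on the log2 scale, with ex-iTreg above iTreg by 0.46. Klf2, Bach2 and Lef1, named after their values were seen, differed by -0.59, -0.72 and -0.55. Dapl1 and Pde3b differed more, by -3.75 and -3.64, but were not origin genes, because ex-iTreg exceeded iTreg by 0.79 and 2.50. Foxo1, which promotes the naive programme, was among the 2 members called higher, at 0.43; these 3 genes too were named after their values were seen.

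**Figure D4:**
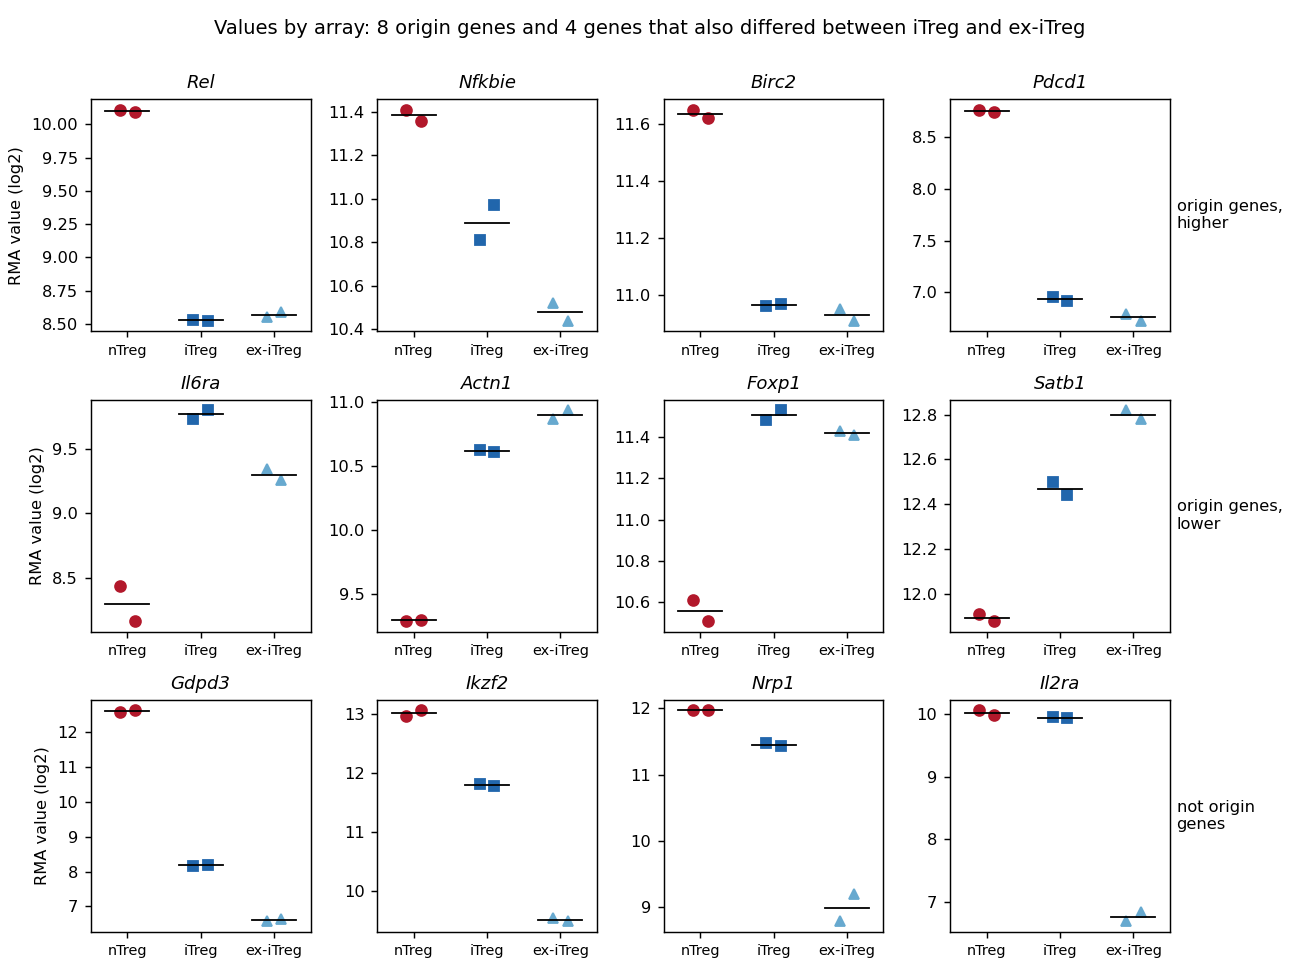
RMA values (log2) by population for 12 genes, 1 point per array, with a bar at the mean of the 2 arrays; each panel has its own axis, which does not start at 0. Rel and Birc2 have iTreg and ex-iTreg at nearly 1 level under nTreg, Foxp1 and Actn1 have them above nTreg, and Gdpd3, Ikzf2, Nrp1 and Il2ra in the bottom row step down from iTreg to ex-iTreg.

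Some of the genes of largest difference encode proteins that bind actin; they were picked by size, and no list of such genes was counted. Myo6, the myosin that moves towards the minus end of actin, was the named gene of largest lower difference, at 7.30 and 7.14 in nTreg, 10.55 and 10.50 in iTreg, and 9.98 and 10.13 in ex-iTreg. The difference was -3.07 ± 0.07 (8.41-fold lower on the fitted means, limma adjusted p 4.67e-06), with further probe sets at -2.41 and -1.67. Myo1d, a class I myosin, was higher, at 6.86 and 6.56 in nTreg against 4.73 to 5.06 (1.85 ± 0.12), values all under 5.48, so that it passed the filter only through nTreg. Gas2l3, which links actin to microtubules, read 8.08 and 7.88 in nTreg, 6.08 and 5.92 in iTreg, and 5.82 and 5.89 in ex-iTreg (2.05 ± 0.08, limma adjusted p 2.22e-05), and its 2 other probe sets gave 2.11 and 2.28. Tiam1, an activator of Rac, was the exchange factor of largest difference in its list, at 11.79 and 11.84 against 10.53 to 10.85 (1.12 ± 0.05). Of 87 tested small GTPases and their regulators, limma called 27 (31.0%) higher and 16 (18.4%) lower, against 15.6% and 17.4% of all genes. As higher 22 (25.3%) met the rule, and as lower 13 (14.9%), against 13.7% and 20.2% of all genes.

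The remaining higher genes at the top of the set belong to different families. Kdf1, a regulator of keratinocyte differentiation, read 6.35 and 5.98 in nTreg and 3.66 to 4.07 on the induced arrays (2.28 ± 0.16, limma adjusted p 0.00018). Nap1l3, a nucleosome assembly protein relative, was higher by 1.93 ± 0.15, and Nid2, a basement membrane protein, by 1.90 ± 0.19. Scamp1 of secretory vesicles, Nxnl2 of the thioredoxin family and the lectin-like receptor Klrb1f were higher by 1.85, 1.74 and 1.70. Gprasp2, which sorts G protein-coupled receptors, was higher by 1.67, with iTreg above ex-iTreg by 0.46, and the endophilin Sh3gl3 by 1.62. Kdf1, Nap1l3, Nid2, Scamp1 and Klrb1f had all 4 induced values under 5.48, passed the filter only through nTreg and so had to differ; Nxnl2 had 1 induced value above it, 5.76 in iTreg pool 2.

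Lower genes at the top of the set also came from separate families. Dse, the epimerase of dermatan sulfate, read 3.98 and 3.74 in nTreg, 6.01 and 5.45 in iTreg, and 6.03 and 5.93 in ex-iTreg (3.99-fold lower on the fitted means, limma adjusted p 0.000295), so its nTreg level was near background. Pdk1, the kinase that restrains pyruvate dehydrogenase, read 6.64 on both nTreg arrays, 8.15 and 8.11 in iTreg, and 7.89 and 7.97 in ex-iTreg (-1.39 ± 0.06, limma adjusted p 2.22e-05). Slpi, a secreted protease inhibitor, was lower by 1.26 ± 0.06 on the log2 scale. Lhfpl3, Ms4a4c, the magnesium transporter Nipa1 and Nav1 differed by -1.42, -1.34, -1.31 and -1.29; the nTreg values of Lhfpl3 and Nipa1, like those of Dse, were under 5.48, so these passed the filter only through induced arrays. Pik3ip1, an inhibitor of PI3K in T cells, read 7.66 and 7.63 in nTreg and 8.76 to 8.92 on the induced arrays (-1.16 ± 0.06, limma adjusted p 6.97e-05).

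Some survival and division genes met the rule. Bcl2l1, which encodes the survival protein BCL-XL, was higher by 0.77 ± 0.06 and Pmaip1, which encodes the pro-apoptotic BH3-only protein NOXA, by 0.86 ± 0.06. Bcl2 was lower, at 10.34 and 10.31 in nTreg, 10.87 and 10.99 in iTreg, and 11.02 and 11.07 in ex-iTreg (-0.66 ± 0.06, limma adjusted p 0.000561); its 4 other probe sets were lower by 0.81 to 1.39 on the log2 scale, and in 3 of them ex-iTreg exceeded iTreg by 0.77 to 1.00. Of 26 tested BCL2 family and death genes, limma called 11 higher and 4 lower. The rule took 8 (30.8%) as higher and 3 (11.5%) as lower, against 13.7% and 20.2% of all genes. Mki67, the proliferation antigen, read 9.65 and 9.57 in nTreg, 9.02 and 9.08 in iTreg, and 8.70 and 8.63 in ex-iTreg (0.75 ± 0.06), while Cdk4 was lower by 0.44 ± 0.05. Of 39 tested cell cycle genes, 13 were called higher and 4 lower. Those that met the rule, 7 (17.95%) as higher and 6 (15.4%) as lower, were near the 13.7% and 20.2% of all genes.

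Ribosomal protein genes showed small differences in 1 direction. All 37 tested cytosolic ribosomal protein genes had negative differences in the values as deposited, with a median of -0.13; limma called 13 (35.1%, against 17.4% of all genes) lower and none higher, and 32 (86.5%, against 20.2%) met the origin rule. Rps19 read 13.33 and 13.32 in nTreg, 13.66 and 13.68 in iTreg, and 13.75 and 13.76 in ex-iTreg (-0.39 ± 0.05, limma adjusted p 0.00239). Rpl14 and Rps25 differed by -0.56 and -0.49. The median difference of the list was -0.07 after quantile normalization, where 22 genes met the rule and 9 were called, and without nTreg pool 2 limma called 5. Of 37 tested respiratory chain subunits, limma called 4 (10.8%) lower, a smaller share than the 17.4% of all genes, and none higher; 11 (29.7%) met the rule as lower, and without nTreg pool 2 limma called 1.

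Interferon-stimulated genes moved both ways, 10 of 40 called higher and 16 lower, with a median of -0.16. The rule took 3 (7.5%) as higher and 11 (27.5%) as lower, against 13.7% and 20.2% of all genes. Oas2, an antiviral RNA sensor, read 6.91 and 6.83 in nTreg, 7.85 and 7.91 in iTreg, and 7.65 on both ex-iTreg arrays (-0.89 ± 0.06, limma adjusted p 0.000122). Slfn1, a Schlafen gene of resting T cells, was lower by 1.06 ± 0.06 on the log2 scale. Xaf1 met the rule as lower by its probe set of highest mean, at 8.84 and 8.61 in nTreg, 9.98 and 10.00 in iTreg, and 9.67 and 9.68 in ex-iTreg. A further Xaf1 probe set read 10.29 and 10.21 in nTreg, 5.85 and 6.10 in iTreg, and 5.22 and 4.97 in ex-iTreg, a difference of 4.72 in the opposite direction, so no direction is given for the gene.

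Further probe sets of the genes at 2-fold mostly ran in the same direction. Among the 72 higher genes at 2-fold, 18 had another tested probe set; limma called 21 of those 23 probe sets higher and 0 lower, and 15 reached 2-fold. Among the 34 lower genes, 16 had 29 further probe sets, of which 28 were called lower, 19 reached 2-fold, and 1, that of Xaf1, was called higher. A population mean was under 5.48 in 32 of the 72 higher and 7 of the 34 lower genes. All 4 induced values were under it in 24 of the 72, and in 50 of all 1510 higher origin genes, and both nTreg values in 5 of the 34, and in 76 of all 2227 lower ones; such genes passed the filter only through the side where they are high. Within the limit, the ex-iTreg mean was the farther from nTreg in 55 of the 72 higher and 21 of the 34 lower genes.

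The genes best known for Treg identity were mostly not origin genes. limma called 31 of 33 tested Treg signature genes higher in nTreg and 1 lower, with a median difference of 1.42, but 3 met the rule: Ccr8, Icos and S100a6. Ikzf2, which encodes Helios and marks thymic Treg cells, read 12.97 and 13.06 in nTreg, 11.81 and 11.77 in iTreg, and 9.53 and 9.48 in ex-iTreg, with ex-iTreg minus iTreg of -2.29. Nrp1, another thymic marker, read 11.97 on both nTreg arrays, 11.48 and 11.43 in iTreg, and 8.79 and 9.20 in ex-iTreg. Il2ra, the alpha chain of the IL-2 receptor, was nearly equal in nTreg (10.06 and 9.98) and iTreg (9.95 on both arrays) and low in ex-iTreg (6.69 and 6.85). All 6 thymic Treg markers tested were called higher and 0 met the rule. Gdpd3, a glycerophosphodiesterase, had the most extreme difference of the genes named here, at 12.58 and 12.62 in nTreg, 8.16 and 8.19 in iTreg, and 6.57 and 6.64 in ex-iTreg (5.21 ± 0.06), and missed the rule with ex-iTreg minus iTreg of -1.57.

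Of 8 tested sex-linked transcripts, limma called 3 higher and 3 lower in nTreg (37.5% each, against 15.6% and 17.4% of all genes). Kdm5d, a histone demethylase gene of the Y chromosome, read 6.30 and 5.61 in nTreg, 7.89 and 7.86 in iTreg, and 7.97 on both ex-iTreg arrays (-1.97 ± 0.17, limma adjusted p 0.000455). Eif2s3y and Uty, also Y-linked, were lower by 1.52 and 1.64 on the log2 scale but differed between iTreg and ex-iTreg by 0.75 and 0.53. Further Uty probe sets met the rule as lower, at -0.95 and -0.89, with ex-iTreg minus iTreg of 0.43 and 0.40. Another Uty probe set, at -0.30, was outside the rule. Xist, expressed from the inactive X chromosome, read 13.16 on both nTreg arrays, 11.87 on both iTreg arrays, and 9.42 and 9.12 in ex-iTreg. It missed the rule through the difference between iTreg and ex-iTreg, which was -2.39 and -2.56 by further Xist probe sets. Kdm5c and Kdm6a, which escape X inactivation, were higher by 0.52 ± 0.08 and 0.48 ± 0.07 and met the rule. Donor sex and origin cannot be told apart for the differences of these genes between nTreg and the induced cells. What lies behind their differences between iTreg and ex-iTreg was not tested.

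Thy1, whose allele marks the transferred cells, was lower in nTreg, at 11.48 and 11.49, than in iTreg (12.13 and 12.28) and ex-iTreg (11.85 and 11.87), a difference of -0.55 ± 0.06 (limma adjusted p 0.00131). Among the 58 tested genes of the 100 on each side of Thy1, 6 met the rule as higher and 11 as lower, and 0 reached 2-fold. limma called 12 of them higher and 6 lower.

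Markers of other cells moved with some results. Marco, a macrophage scavenger receptor, met the rule as lower, at 5.07 and 4.92 in nTreg, 6.50 and 6.47 in iTreg, and 6.11 and 6.20 in ex-iTreg (-1.33 ± 0.07). Both nTreg values were under 5.48, so Marco passed the filter only through induced arrays. Another Marco probe set was under 5.48 on every array and was not tested. Of 25 tested macrophage and monocyte markers, limma called 18 (72%) lower and 3 (12%) higher. The rule took 6 (24%) as lower and 1 (4%) as higher, against 20.2% and 13.7% of all genes. The summed level of the 27 on the array was 13.87 to 13.93 (log2) in nTreg and 13.69 to 14.18 on the induced arrays, with nTreg between ex-iTreg and iTreg. Ctss and Cebpb weigh heavily in this sum, and both were higher in nTreg than on any induced array. Cd5l was lowest in nTreg, at 6.54 and 6.31, against 7.88 and 7.80 in iTreg and 6.81 and 7.01 in ex-iTreg. Adgre1, C1qb and Slc40a1 had the same order. Ms4a1, the B cell antigen CD20, met the rule as higher, at 5.64 and 5.79 in nTreg, 4.60 and 4.63 in iTreg, and 4.31 and 4.22 in ex-iTreg (1.28 ± 0.07), passing the filter only through nTreg. Of 5 tested B cell markers, limma called 3 higher and 1 lower. Bank1 was lowest in nTreg, at 6.45 and 6.31, against 8.11 and 8.38 in iTreg and 7.03 and 7.16 in ex-iTreg. Cd79b read 7.79 and 7.52 in nTreg, 6.38 and 6.56 in iTreg, and 4.505 and 4.80 in ex-iTreg. Of 12 B cell markers 8 had a mean under 5.48, and the summed level of the 12 was 12.38 on both nTreg arrays, 12.33 and 12.36 in iTreg, and 11.36 and 11.32 in ex-iTreg. Most of that sum was 1 Ighm probe set, at 12.21 and 12.20 in nTreg, 12.14 and 12.17 in iTreg, and 11.13 and 11.06 in ex-iTreg. Zbtb46, a transcription factor of dendritic cells, met the rule as higher at 2-fold, at 5.71 and 5.64 in nTreg against 4.54 to 4.71 (1.04 ± 0.06), again passing the filter only through nTreg; its 3 other probe sets were not tested. The 13 dendritic cell markers as a whole had a lower summed level in nTreg, 11.93 on both arrays against 12.00 to 12.43, and limma called 3 of 9 tested lower and 1 higher. The plasma cell markers also had a lower sum in nTreg, 10.11 on both arrays against 10.15 to 10.50, with 1 of 4 called lower and none higher.

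Of 8 tested CD8 T and NK cell markers, limma called 5 lower and 2 higher; their sum of 10.04 to 10.06 in nTreg lay between 9.63 and 9.70 in iTreg and 10.51 to 10.53 in ex-iTreg. Of 5 tested erythroid markers 3 were called lower and none higher, with a sum of 9.895 to 9.906 in nTreg and 9.77 to 10.44 on the induced arrays; the alpha-globin gene Hba-a1 was near background on every array, at 3.65 to 4.01. Neutrophil, mast cell and basophil, and stromal and endothelial markers had 1 of 8, 0 of 3 and 1 of 3 called lower and none higher. Over all genes tested, limma called 15.6% higher and 17.4% lower. The part of any of these cell types in the results was not tested. In these pools, a share of cells that express a gene and a level per cell cannot be told apart.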

How the data were processed

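The deposited log2 expression values, 1 per probe set of 6 Affymetrix Mouse430_2 arrays, come from RMA, run by the authors per the submitters' processing notes. Software, version and genome build: not given in the sources used here. Of 45101 probe sets, 64 controls were left out; the platform annotation gave 34945 of the others 1 symbol, 932 several and 9160 none, and 34741 matched RefSeq by Entrez identifier. Probe sets that exceeded 5.48 (the overall median) on 2 or more arrays were kept (23484), and the one of highest mean stood for a gene (11019 genes).

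limma 3.58.1 in R 4.3.3 (lmFit, eBayes) fitted 1 mean per population, with 3 residual and 3.37 prior degrees of freedom; the contrast was nTreg minus the mean of the iTreg and ex-iTreg means. Calls use Benjamini-Hochberg adjusted p-values under 0.05, adjusted over all 23484; the script was tested on simulated data. The number of arrays limits the precision. The 14 largest called origin genes per direction were named, passing over clone and model names, with up to 5 origin genes of each of 40 gene lists, fixed genes of interest and genes at the 0.5 limit. Origin genes and lists were chosen with earlier results of these data known. Alternatives were another filter, quantile normalization, other fits and limits, and leaving out each array.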

Additional observations from a re-analysis of the deposited data

How the results depend on the processing

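Among the 28 named origin genes of largest difference, all were called in the same direction by limma under a replicate block, with the 4 induced-origin arrays as 1 group, with trend and robust eBayes, with treat at 1.5-fold, without a filter, after quantile normalization and without any 1 array (highest adjusted p 0.0248, for treat); a filter on the mean kept 19 of them, all called. Of all named genes, 83 lost their call with the induced arrays as 1 group and 119 did not, and 1 lost it with a replicate block. Counts moved more. Genes called higher and lower were 362 and 309 with the induced arrays as 1 group, and 270 and 144 with treat at 1.5-fold. Without 1 array at a time, genes called lower ranged from 1158 to 1602 and origin genes higher from 1673 to 2344; the rule has fewer arrays to satisfy there. Requiring the rule of every tested probe set left 950 genes higher, and a gap of at least 0.5 between nTreg and the nearest other array left 176 higher and 100 lower. With iTreg and ex-iTreg within 0.25, origin genes at 2-fold numbered 39 higher and 15 lower, and within 1, 144 and 61; these counts at 2-fold were added after seeing the data. Pool numbers did not pair the arrays: the differences between pools 1 and 2 correlated at -0.01, -0.09 and -0.04 between populations, and with a replicate block limma called 1579 genes higher and 1659 lower. Signal near background limits the fold of 32 higher and 7 lower genes at 2-fold.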

Other observations

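Lipid and transport genes met the origin rule in both directions, as did 13.7% (higher) and 20.2% (lower) of all genes. Pcyt1a, the rate-limiting enzyme of phosphatidylcholine synthesis, read 8.83 and 8.79 in nTreg, 7.65 and 7.60 in iTreg, and 7.11 and 7.34 in ex-iTreg (1.38 ± 0.08, limma adjusted p 7.1e-05). Of 56 tested enzymes of phospholipids and lysophospholipids, 7 (12.5%) met the rule as higher and 11 (19.6%) as lower. In cholesterol synthesis and uptake, limma called 7 of 26 tested genes lower in nTreg and 2 higher, with a median of -0.05; 2 (7.69%) and 7 (26.9%) met the rule. Sqle, squalene epoxidase, read 7.34 and 7.28 in nTreg and 7.996 to 8.118 on the induced arrays (-0.73 ± 0.06), and Lss and Msmo1, later enzymes of the pathway, differed by -0.51 and -0.50. Among transporters, Slc39a8, a zinc importer, read 6.05 and 5.94 in nTreg and 7.07 to 7.24 on the induced arrays (-1.16 ± 0.07), while the channel gene Trpc1 was higher by 1.30 ± 0.13. Of 65 tested solute carriers and channels, 18 were called higher and 20 lower, and 10 (15.4%) and 15 (23.1%) met the rule.

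Genes of T cell receptor signalling and ubiquitin ligases met the rule in both directions, as did 13.7% (higher) and 20.2% (lower) of all genes. Rnf128, the anergy-linked ubiquitin ligase GRAIL, read 8.16 and 7.97 in nTreg, 6.95 and 7.14 in iTreg, and 7.52 and 7.35 in ex-iTreg (0.82 ± 0.09, limma adjusted p 0.0012), and Cbl, another ubiquitin ligase of this pathway, was higher by 0.61 ± 0.06. Dtx1, a Deltex ligase, read 10.02 and 9.94 in nTreg and 10.76 to 11.11 on the induced arrays (-0.95 ± 0.06), and Dgka, which consumes diacylglycerol, differed by -0.53 ± 0.06. Of 53 tested genes of the T cell receptor complex and its signalling, limma called 11 (20.8%) higher and 13 (24.5%) lower. Of all genes it called 15.6% and 17.4%. The median of the list was -0.06, and 10 (18.9%) and 14 (26.4%) met the rule. Of 67 tested ubiquitin ligases and deubiquitinases, 12 (17.9%) and 11 (16.4%) did.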
